A study of Mus musculus with 18 samples.

Results

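The histone deacetylases and sirtuins remove acetyl groups from histones and other proteins, and 10 of their genes, Hdac1, Hdac2, Hdac3, Hdac4, Hdac5, Hdac7, Hdac9, Sirt1, Sirt3 and Sirt6, were followed here in the skeletal muscle of aging mice. They were taken by gene symbol from a muscle RNA-seq table of 23420 genes, and all 10 were among the 13178 genes tested, those whose normalized counts averaged 10 or more over the libraries, so that none was lost to the filter on low values. The libraries came from hindlimb muscle of female C57BL/6J mice, a common inbred strain, at 2 months (young, 2-m), 20 months (aged, 20-m) and 28 months (superaged, 28-m), with 3 mice and 3 libraries per age and no treatment or transgene. A normalized count is the number of reads on a gene divided by the size factor of its library. DNA of the same mice was pooled by age, captured with a methyl-CpG-binding domain protein and sequenced (MBD-seq), in muscle and in spleen T cells selected with magnetic beads. The muscle capture was done in 2 rounds, and the table holds 1 muscle column per age that does not name its round, and 1 T-cell column per age.

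The class I members (Hdac1, Hdac2 and Hdac3) are largely nuclear enzymes that work inside corepressor complexes such as Sin3, NuRD, CoREST and NCoR. Class IIa deacetylases (Hdac4, Hdac5, Hdac7 and Hdac9) shuttle between nucleus and cytoplasm, bind and repress the muscle transcription factors of the MEF2 family, and leave the nucleus when calcium-dependent or other kinases phosphorylate them and 14-3-3 proteins hold them; in muscle, Hdac4 and Hdac9 are known for their parts in the response of fibres to nerve activity. Sirtuins need NAD as a cosubstrate, and Sirt1 and Sirt6 act mainly in the nucleus while Sirt3 is the main deacetylase of mitochondria.

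The stretch of 250 bases before an annotated start is shown for the 4 members that passed the test in some contrast and for 2 starts of Hdac7, whose MBD-seq signal moved in opposite directions in muscle and T cells. The sequences come from the RefSeq annotation of GRCm38.p6, which held a start for 8 of the 10 members, and run 5′ to 3′ on the strand of the gene with each CpG, the dinucleotide that carries most DNA methylation, in capitals. They lie at chr10:36974294-36974543 on the plus strand (Hdac2), and on the minus strand at chr1:92180342-92180591 (Hdac4), chr12:34917096-34917345 (Hdac9), chr10:63339036-63339285 (Sirt1), chr15:97844503-97844752 (Hdac7 upstream) and chr15:97831496-97831745 (Hdac7 internal). The listed start of Hdac4 lies inside the annotated gene, whose 5′ end is at chr1:92195702.
Hdac2: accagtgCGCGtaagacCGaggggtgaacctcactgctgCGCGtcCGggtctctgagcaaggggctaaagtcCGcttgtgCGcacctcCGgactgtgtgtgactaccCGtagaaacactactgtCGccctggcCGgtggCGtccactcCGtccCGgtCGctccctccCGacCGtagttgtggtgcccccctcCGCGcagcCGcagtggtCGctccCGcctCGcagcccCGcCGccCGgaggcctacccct
Hdac4: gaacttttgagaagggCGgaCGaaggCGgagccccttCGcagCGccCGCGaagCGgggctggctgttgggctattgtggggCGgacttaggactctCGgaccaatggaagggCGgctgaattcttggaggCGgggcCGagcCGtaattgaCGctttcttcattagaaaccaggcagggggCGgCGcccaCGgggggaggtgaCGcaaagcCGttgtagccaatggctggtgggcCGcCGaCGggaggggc
Hdac9: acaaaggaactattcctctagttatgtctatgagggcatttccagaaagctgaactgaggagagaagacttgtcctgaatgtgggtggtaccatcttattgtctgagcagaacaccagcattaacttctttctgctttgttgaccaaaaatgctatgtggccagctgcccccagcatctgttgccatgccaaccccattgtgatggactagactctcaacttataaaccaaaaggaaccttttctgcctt
Sirt1: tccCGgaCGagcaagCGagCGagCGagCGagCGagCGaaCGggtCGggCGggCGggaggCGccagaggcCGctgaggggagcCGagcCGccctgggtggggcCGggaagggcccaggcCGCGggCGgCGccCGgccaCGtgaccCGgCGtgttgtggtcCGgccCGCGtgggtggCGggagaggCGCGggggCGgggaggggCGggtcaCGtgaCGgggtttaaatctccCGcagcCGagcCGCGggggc
Hdac7 upstream: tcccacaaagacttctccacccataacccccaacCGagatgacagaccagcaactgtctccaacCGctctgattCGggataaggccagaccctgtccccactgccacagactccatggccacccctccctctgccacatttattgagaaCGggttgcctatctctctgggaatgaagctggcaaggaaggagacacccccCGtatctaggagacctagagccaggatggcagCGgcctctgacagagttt
Hdac7 internal: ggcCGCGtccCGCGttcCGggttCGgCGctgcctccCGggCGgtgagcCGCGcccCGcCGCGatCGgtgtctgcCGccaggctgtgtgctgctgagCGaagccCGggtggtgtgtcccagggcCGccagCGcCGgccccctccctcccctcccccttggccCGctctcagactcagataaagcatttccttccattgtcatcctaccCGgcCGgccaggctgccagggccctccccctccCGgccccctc

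CpG content set these promoters apart from each other. The 250 bases before Sirt1 held 39 CpGs, those before Hdac2 27 and those before Hdac4 23, against a median of 6 over 32851 promoter windows of the same length. Hdac9 held 0 CpGs at its upstream start and 2 at its second listed start, and its windows had a GC content of 44.4% and 43.6%, against a median of 52.4%. Hdac7 held 6 CpGs upstream, 25 at the internal start printed above and 21 and 5 at its other listed starts. On either strand, the letters GGGCGG, the core of a GC box, occurred 6 times before Sirt1 and 4 times before Hdac4, and 32.7% of all windows held them at least once. The E-box letters CAGCTG, which also count as CANNTG, occurred once in each of the Hdac9 windows and in 13% of all windows. A match to the MEF2 consensus was found before Hdac5, where it occurred 1 time, and in no window of the other members; 2.92% of all windows held such a match.

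All 10 genes were read in every muscle library, from 35 to 187 reads for Sirt6, a chromatin-bound deacetylase linked to DNA repair and metabolism, up to 1248 to 5425 reads for Hdac5. Libraries held 20203833 to 71115244 reads on genes and 14978 to 16578 genes with a read. The striated muscle genes Ckm, Acta1, Des and Myh4 were high in all 9 libraries, with Acta1 at 1006620 normalized counts or more. Libraries numbered 3 stood apart at each age, since their 10 most abundant genes took 29.6 to 32.5% of the normalized counts against 43.1 to 48.4% in the other 6; values for libraries 1 and 2 alone are therefore also given for the called members and for Hdac3 and Sirt3. Library 1 of the 2-m group held the most marrow and bone transcripts: its summed level of 7 neutrophil and marrow markers was 5139.8 normalized counts against 72.2 and 69.3 in the other 2-m libraries and 14.9 to 74.2 in older muscle. It also held 4123 of summed bone and cartilage markers, against 345 to 1631 in the other libraries of its age and 435 to 1039 in older muscle.

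Compared per kb of the longest annotated transcript, the members spanned a wide range of levels in 2-m muscle. Hdac2 stood at 1035 ± 35.2 normalized counts per kb (SD, n = 3) and Hdac3, the catalytic subunit of the NCoR complex, at 984 ± 44.3, and their libraries overlapped. Hdac5 followed at 602 ± 49.1 per kb, Sirt3 at 385 ± 39.0 and Hdac1 at 192 ± 21.8, without overlap between these neighbours. Sirt1 (90.3 ± 9.79 per kb) and Hdac4 (80.9 ± 17.4) overlapped, as did Sirt6 (54.2 ± 13.2) with both Hdac4 and Hdac7 (47.1 ± 5.33), and Hdac9 was lowest at 16.6 ± 1.81 per kb. The low place of Hdac7 rested on a long predicted transcript: per kb of the longest curated transcript it stood at 126 ± 14.3, while Hdac9, at 41.3 ± 4.51, had the lowest mean of the 10 on that scale too. In 28-m muscle Hdac4 had reached 152 ± 27.1 per kb, which overlapped Hdac1 at 159 ± 23.3 and lay above Sirt1 at 114 ± 7.34. Among the 8 other deacetylase genes, Sirt2, a mainly cytoplasmic tubulin deacetylase, was above all members at 1870.1 ± 120 per kb in 2-m muscle.

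**Figure D1:**
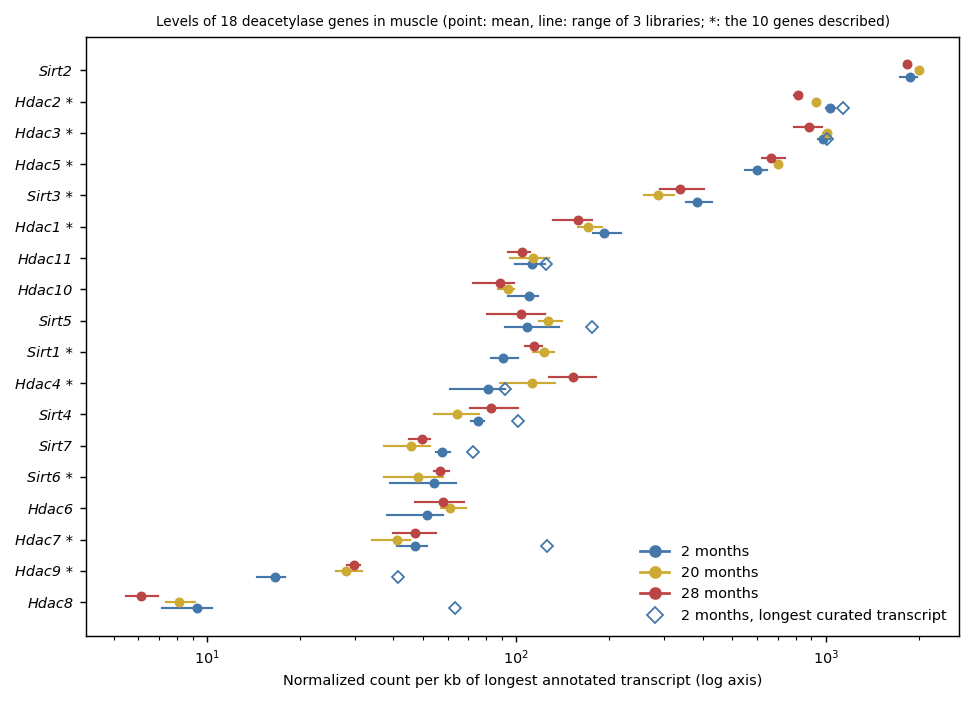
Level of 18 deacetylase genes in muscle on a log axis, in normalized counts per kb of the longest annotated transcript, with the mean (point) and range (line) of 3 libraries for each age; open diamonds give the 2-month mean per kb of the longest curated transcript where that differs, and asterisks mark the 10 members. Hdac2 and Hdac3, at 1035 and 984 per kb at 2 months, sit below Sirt2, and Hdac9 moves from 16.6 at 2 months to 29.9 at 28 months.

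The summed level of the class I members, Hdac1, Hdac2 and Hdac3, was 2212 ± 97.7 normalized counts per kb at 2 months, 2109 ± 3.50 at 20 and 1855 ± 127 at 28 months. The summed class IIa level went the other way, from 747 ± 62.5 per kb in 2-m to 885 ± 35.8 in 20-m and 894 ± 68.2 in 28-m muscle. For both sums the lowest and highest libraries of 2-m and 28-m muscle did not overlap. The 3 sirtuins summed to 529 ± 30.0, 457 ± 47.6 and 509 ± 49.2 per kb. These are sums over chosen genes and were not tested.

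**Figure D2:**
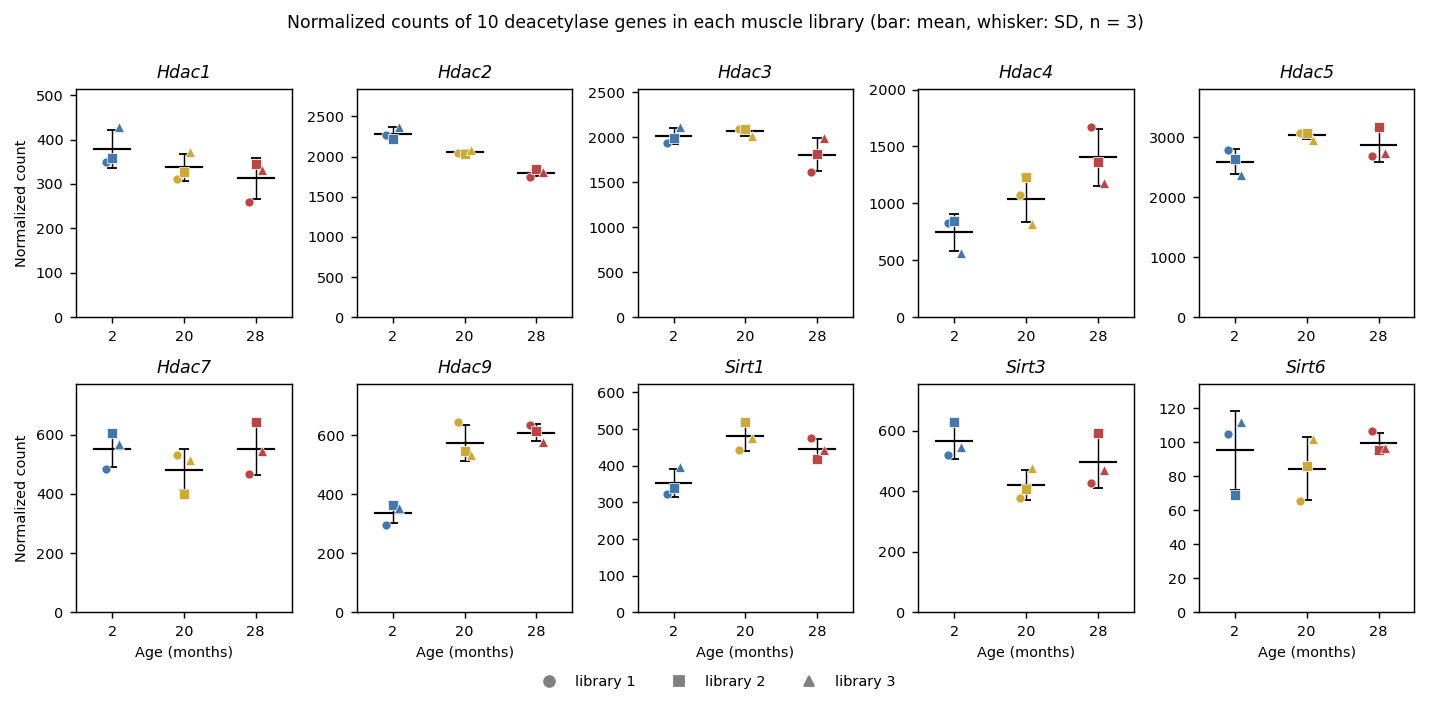
Normalized counts of the 10 genes in each of the 9 muscle libraries at 2, 20 and 28 months, with the marker showing the library number, the bar the mean and the whisker the SD (n = 3). Hdac9 is at 296 to 365 in 2-m muscle and at 532 or more in every older library, and the 3 ages of Hdac2 form separate, descending groups. The mean of Hdac4 is higher at each later age, while its 20-m libraries overlap those of both other ages.

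The first comparison asked which members had changed by 20 months. Of the 10 members, 2 passed an adjusted p of 0.05 in 20-m against 2-m muscle, Hdac9 and Sirt1, and both rose; of all 13178 genes, 16.6% passed, 9.42% rising and 7.13% falling. The members' median log2 fold change was -0.06, against -0.02 over all genes, and 5 members were higher and 5 lower. No member passed the rule of the study, a fold above 2 with an unadjusted p under 0.05, which 5.17% of genes passed. At an unadjusted p under 0.05 there were 5 members, against 31.5% of all genes. In 3 members every 20-m library was above every 2-m library and in 2 every one was below, against 18.4% and 17.6% of all genes.

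In the second comparison, 28-m against 2-m muscle, 3 of 10 members passed, with Hdac4 and Hdac9 rising and Hdac2 falling. Of all genes 13.8% passed, 7.53% up and 6.24% down. The 2-m libraries are the same in both comparisons, so these are not independent of each other. The members' median was 0.04 against -0.01 over all genes, 4 members had an unadjusted p under 0.05 against 28.2% of all genes, and none passed the rule of the study, which 5.14% of genes passed. Groups did not overlap in 3 members that were higher and 2 that were lower, against 15.3% and 15% of all genes.

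Between 20-m and 28-m muscle, 0 members passed limma's adjusted p, and 0 passed with edgeR or DESeq2; 3 had an unadjusted p under 0.05, namely Hdac2, Hdac3 and Hdac4, against 10.6% of all genes. Few genes of any kind passed here (0.379%; 1.31% by the rule of the study). No member was higher in every 28-m library, which 8.63% of genes were, and 2 members, Hdac2 and Hdac3, were lower in every one, against 8.84% of genes.

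**Figure D3:**
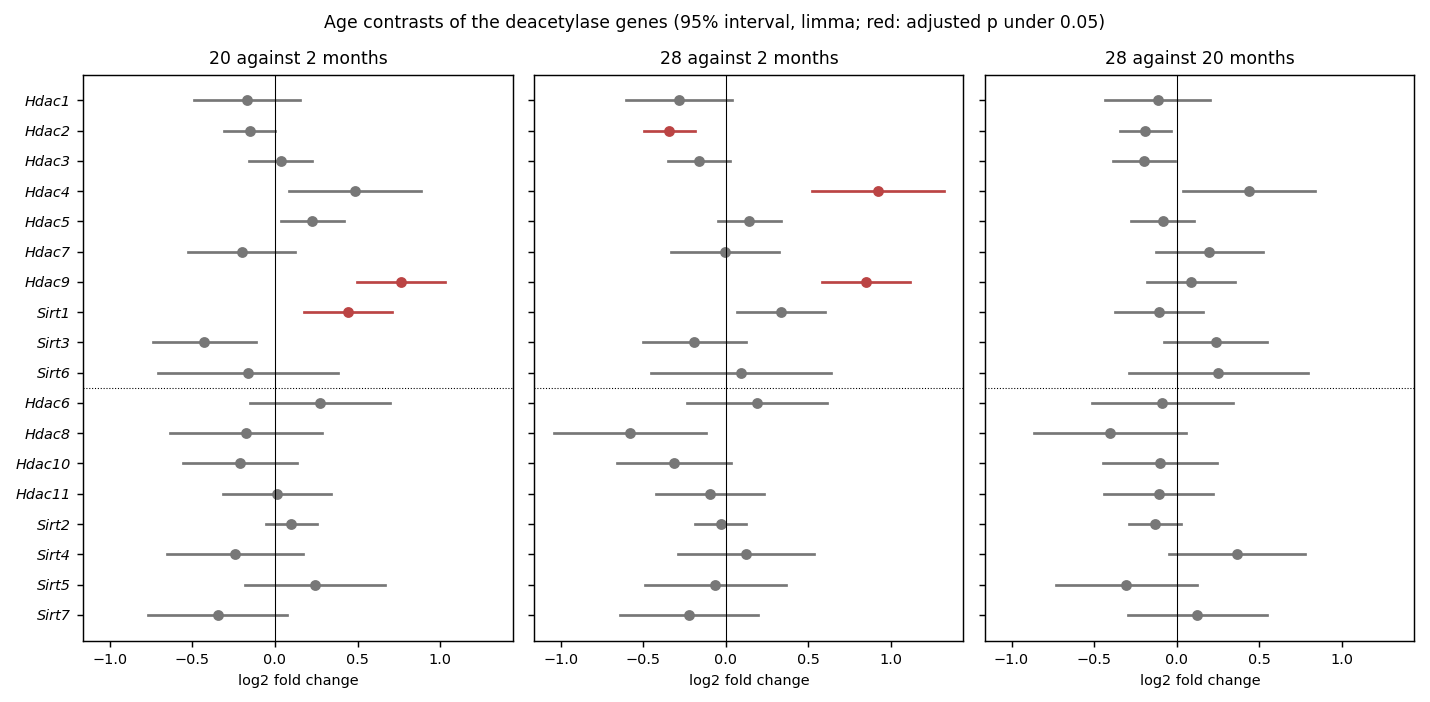
log2 fold change of the 10 members (above the dotted line) and 8 other deacetylases for the 3 pairs of ages, from log2(normalized count + 1), with 95% intervals from limma; red marks an adjusted p under 0.05. Hdac9 is red in both contrasts against 2 months, Sirt1 only in the first, Hdac4 and Hdac2 only in the second, and none is red between 20 and 28 months.

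Hdac2, a catalytic subunit of Sin3, NuRD and CoREST, was the class I member that was called, and it fell. Its normalized counts were 2267, 2220.3 and 2372 in the 2-m libraries, 2049, 2037 and 2080.1 at 20 months and 1752, 1844 and 1810.0 at 28 months. The 3 ages did not overlap, each later age lying below the one before. By 28 months Hdac2 had reached 0.788 of its 2-m level (log2 fold change -0.34, SE 0.0713, 95% interval -0.50 to -0.19; limma adjusted p = 0.00753). The first interval, -0.15 (adjusted p = 0.162, limma), and the second, -0.19 (adjusted p = 0.358, limma), did not pass on their own. The exact permutation test gave 0.1 for each of the 3 contrasts, the smallest 2-sided p that 3 against 3 libraries allow. In libraries 1 and 2 alone the 28-m difference was -0.32 (adjusted p = 0.0796, limma), and with every library rescaled to the same sum it was -0.30 (adjusted p = 0.624, limma).

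Hdac1, a close paralog of Hdac2 found in the same complexes, was lower in each 28-m library than in any 2-m library but did not pass. It stood at 349.9, 359 and 429 normalized counts in 2-m, 312, 327 and 372 in 20-m and 260.0, 345 and 332 in 28-m muscle, where the 20-m libraries overlapped both other ages. Its 28-m difference of -0.28 had an interval from -0.60 to 0.03 (adjusted p = 0.23, limma). A processed copy, Hdac1-ps, is annotated at chr17:78491565-78493541 and has no row in the table, so the counts of Hdac1 are uncertain to the extent that reads matched both.

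For Hdac3 the libraries read 1941, 1997 and 2119 normalized counts at 2 months, 2090.4, 2097 and 2013 at 20 months and 1619, 1815 and 1989 at 28 months. Hdac3 was thus level between 2 and 20 months, with a difference of 0.03 (interval -0.15 to 0.22). All 28-m libraries were below all 20-m libraries, by -0.20 on the log2 scale (adjusted p = 0.451, limma), and the difference was -0.29 in libraries 1 and 2 and -0.02 between the libraries numbered 3.

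Hdac9, the class IIa member whose short form MITR lacks the catalytic domain and represses MEF2, gave the smallest adjusted p of the 10 genes. It stood at 296, 365 and 355 normalized counts in 2-m muscle, at 646, 547 and 532 in 20-m and at 636, 615 and 578 in 28-m muscle. Every older library was above every 2-m library, and the 20-m and 28-m libraries overlapped. The rise to 20 months was 1.70-fold (log2 0.76, SE 0.123, interval 0.50 to 1.03; limma adjusted p = 0.00143) and that to 28 months 1.80-fold (log2 0.85, interval 0.58 to 1.12; limma adjusted p = 0.000694). Between 20 and 28 months the difference was 0.09, with an interval from -0.18 to 0.35. Both rises passed under every alternative run, with adjusted p from 2.94e-06 to 0.0481 for the first and from 1.34e-07 to 0.019 for the second over limma, edgeR and DESeq2 fits. Without 2-m library 1, the one with marrow and bone transcripts, the log2 values were 0.67 and 0.76, and in libraries 1 and 2 alone 0.85 and 0.92.

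The Hdac9 gene spans 869.5 kb at chr12:34047580-34917095 on the minus strand, the longest of the 10 members, and the deposited counts sum all its isoforms, MITR included. Small parts of its exons overlap exons of predicted genes on the other strand, Gm40384 over 85 bases and Gm51984 over 35 bases, and the strand setting of the counting was not given in the sources used here.

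Hdac4, which in denervated muscle is known to repress Dach2 and so release myogenin, rose over the whole span. Its libraries held 829, 848 and 562 normalized counts at 2 months, 1070.4, 1230.0 and 819 at 20 months and 1674, 1360.3 and 1179.6 at 28 months. The 28-m libraries were all above the 2-m libraries, whereas the 20-m libraries overlapped both. In each age the library numbered 3 was the lowest of its group. Hdac4 was 1.89-fold higher at 28 than at 2 months (log2 0.92, SE 0.184, interval 0.52 to 1.32; limma adjusted p = 0.00616), and this passed under every alternative run, with log2 values from 0.73 without 2-m library 3 to 1.04 without 28-m library 3. In libraries 1 and 2 alone the 28-m difference was 0.85, and between the libraries numbered 3 it was 1.07. The 20-m difference was 0.48 (adjusted p = 0.0922, limma; 0.00536 with a term for the libraries numbered 3), and that from 20 to 28 months 0.44 (adjusted p = 0.428, limma).

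Hdac5, the most abundant class IIa gene here, was at 2782, 2643 and 2366 normalized counts in 2-m muscle and at 3066, 3078 and 2956 in 20-m muscle, without overlap. In 28-m muscle it was at 2691, 3178 and 2733, across the range of both. The 20-m difference of 0.23 had an adjusted p of 0.0973 (limma; 0.0492 with a term for the libraries numbered 3), and the 28-m difference of 0.14 one of 0.322 (limma).

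Hdac7, best known in endothelium and lymphocytes, did not pass in any contrast. Its counts of 484, 606 and 567 at 2 months, 531, 402 and 514 at 20 months and 469, 644 and 545 at 28 months overlapped throughout, and the 28-m difference was -0.01 with an interval from -0.33 to 0.32.

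Sirt1, a nuclear deacetylase of histones and of the coactivator PGC-1alpha, was the sirtuin that passed. The 2-m libraries held 323, 340.1 and 396 normalized counts, the 20-m libraries 443, 519.7 and 477, and the 28-m libraries 474, 417 and 444. Every older library was above every 2-m library. The rise was 1.36-fold at 20 months (log2 0.44, SE 0.123, interval 0.18 to 0.71; limma adjusted p = 0.0279), while at 28 months the value of 0.34 (interval 0.07 to 0.60) had an adjusted p of 0.0912 (limma). The call at 20 months was lost without 2-m library 1 (adjusted p = 0.0973), 2-m library 2 (0.0649), 20-m library 1 (0.0516), 20-m library 2 (0.111) or 20-m library 3 (0.0661), all by limma, as well as in libraries 1 and 2 alone (0.0678) and with libraries rescaled to the same sum (0.406). The log2 difference itself was 0.38 to 0.53 when leaving out each library, 0.53 in libraries 1 and 2, 0.27 between the libraries numbered 3 and 0.46 rescaled.

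Sirt3, which deacetylates enzymes of fatty acid oxidation and the citric acid cycle in mitochondria, was lower in each 20-m library (379, 407 and 476 normalized counts) than in any 2-m library (519, 629 and 546). The 28-m libraries, at 429, 594 and 469.9, overlapped both. The 20-m difference of -0.43 (SE 0.144, interval -0.74 to -0.12) did not pass, with a limma adjusted p of 0.0603. It was -0.54 in libraries 1 and 2 and -0.20 between the libraries numbered 3, and with a term for the latter the limma adjusted p was 0.0520. A stretch of 69 exon bases is shared with Ric8a on the other strand.

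Sirt6 stood at 105, 68.7 and 112 normalized counts in 2-m, 65.4, 86.1 and 102 in 20-m and 106, 95.3 and 96.3 in 28-m muscle. It had the fewest reads of the 10 and the widest intervals, -0.71 to 0.38 for the 20-m and -0.45 to 0.63 for the 28-m difference.

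Of the 8 deacetylase genes outside the set, 0 passed in any of the 3 contrasts by limma (unadjusted p under 0.05 for Hdac8 at 28 against 2 months only). Hdac8, a class I enzyme that acts outside the large corepressor complexes, came closest, with 107, 155 and 154 normalized counts in 2-m and 81.6, 89.8 and 104 in 28-m muscle. Its libraries did not overlap, and the difference was -0.58 (interval -1.04 to -0.12; limma adjusted p = 0.0922). The tubulin deacetylase Hdac6 (0.19), the polyamine deacetylase Hdac10 (-0.31) and the class IV enzyme Hdac11 (-0.10) had 28-m differences whose intervals held 0. So did Sirt2 (-0.03), the mitochondrial Sirt4 (0.12) and Sirt5 (-0.06) and the nucleolar Sirt7 (-0.22).

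Among corepressor subunits, Gps2, a part of the NCoR complex, rose at 20 months (log2 0.38, limma adjusted p = 0.0327), and at 28 months it had the value 0.09, Tbl1x 0.34 and Ncor1 0.11. Of 24 genes of the Sin3, NuRD and CoREST complexes, 5 rose and 1 fell at 20 months, and 2 rose at 28 months. The scaffold Sin3a (0.42), its partner Sap130 (0.43) and the CoREST subunit Rcor3 (0.60) rose at 20 months, and the NuRD remodeler Chd3 fell (-0.44). At 28 months Rcor3 stayed called (0.55), together with Rbbp4 (0.26), which was named after its values were seen. Against background shares of 9.42% up at 20 and 7.53% at 28 months, the medians of the larger list were 0.09 and 0.06.

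Among partners of the class IIa enzymes, 23 MEF2 factors, 14-3-3 genes and kinases were tested, of which 5 rose and 0 fell at 20 months, and 6 rose and 1 fell at 28 months, with list medians of 0.19 and 0.14. Over all genes 9.42% rose and 7.13% fell at 20 months and 7.53% and 6.24% at 28 months, and the same shares apply to each list that follows. Mef2a was at 2266 to 2748 normalized counts in 2-m muscle and at 3468 to 4650.1 in 20-m and 3508 to 4706 in 28-m muscle, with differences of 0.67 and 0.68 (limma adjusted p = 0.00388 and 0.00384). Camk2b, a calcium-dependent kinase subunit abundant in muscle, went from 5803 to 6392 up to 8793 to 10407 and 9473 to 9888 (0.67 and 0.65). The salt-inducible kinases Sik1 (0.55 and 0.75) and Sik3 (0.51 and 0.36), which phosphorylate class IIa deacetylases, rose in both contrasts. Camk2a was the gene that fell at 28 months (-0.52, limma adjusted p = 0.00621; named after its values were seen), and none of the 14-3-3 genes, 6 in number, passed, their values lying between -0.18 and 0.15.

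Genes of the denervation response, several of them known targets of the pathway from Hdac4 to myogenin, had the largest medians among the lists of partners and targets. Of 12, 8 rose at 20 months and 11 at 28 months, none fell, and the median log2 fold change was 0.78 and 1.32. Musk, the receptor kinase of the neuromuscular junction, stood at 308 to 337 normalized counts in 2-m, 714 to 1364 in 20-m and 1109.8 to 1979 in 28-m muscle (log2 1.67 and 2.07; limma adjusted p = 0.000573 and 0.000148). Chrna1, the alpha subunit of the muscle acetylcholine receptor, was at 722 to 787, 878 to 1276 and 1486 to 1840.2, which passed at 28 months (1.10, limma adjusted p = 0.000261).

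Gadd45a and Runx1 are both known to be induced by denervation. Gadd45a was at 978 to 1319.5 normalized counts in 2-m and 925 to 1209.8 in 20-m muscle, and at 2471 to 2748 in 28-m muscle, where it rose against both earlier ages (1.26 against 2-m and 1.33 against 20-m; limma adjusted p = 6.12e-05 and 0.00032). Runx1 climbed from 96.0 to 165 through 209 to 529.8 to 706 to 1046 (log2 1.32 and 2.76 against 2-m muscle). Between 20 and 28 months 2 genes of the list passed, against 0.379% of all genes. They were Gadd45a and the myogenic factor Myog (1.26, limma adjusted p = 0.0473, named after its values were seen). Dach2, itself known as a gene that Hdac4 represses, was higher in older muscle (1.66 and 1.41; limma adjusted p = 0.00125 and 0.00367), and Chrne, the receptor subunit of adult innervated muscle, had values of -0.09 and 0.07; both were named after their values were seen.

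**Figure D4:**
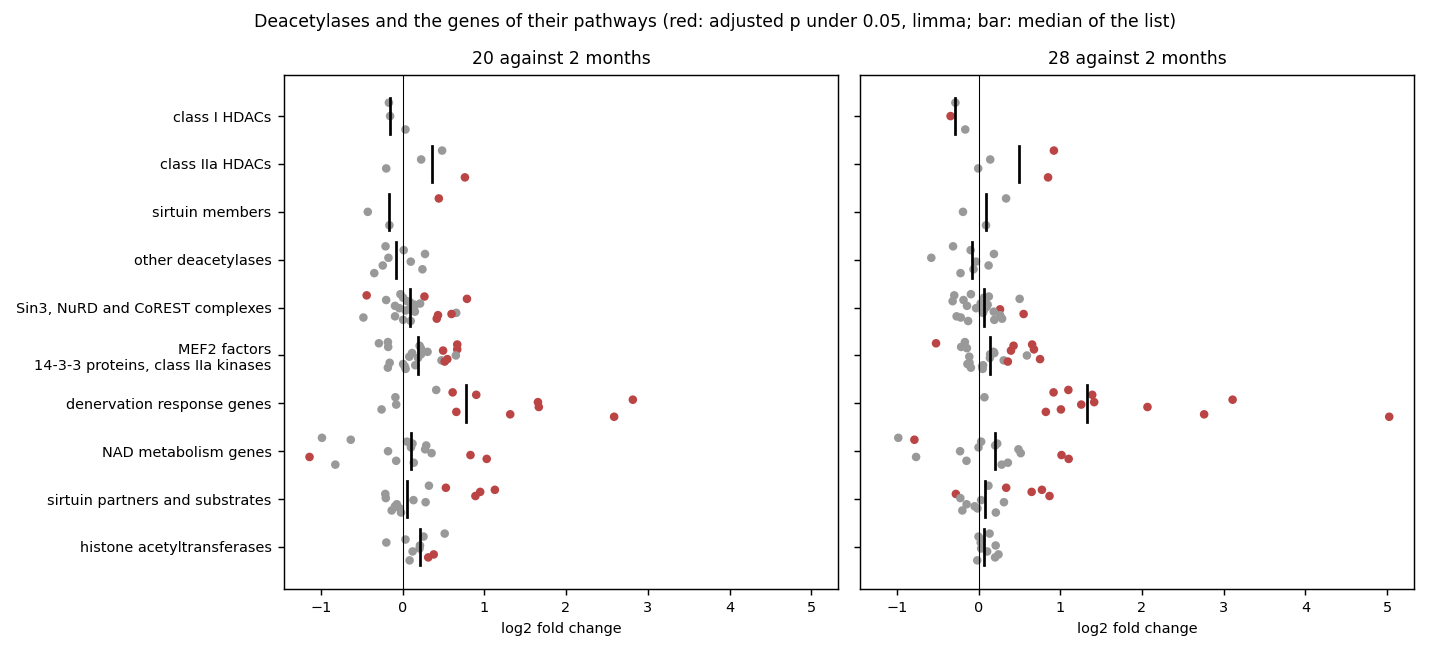
log2 fold change of each tested gene in the deacetylase classes and in the lists of their partners, for 20 against 2 months (left) and 28 against 2 months (right); red marks an adjusted p under 0.05 (limma) and the black bar the median of a list. Denervation response genes lie farthest to the right, with medians of 0.78 and 1.32, and the 3 class I members lie left of 0 at 28 months.

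Markers of fibre type and of other tissues also differed between ages. Markers of slow fibres rose in 8 of 10 genes at 20 and 9 of 10 at 28 months, with their summed level at 16338 to 132979 normalized counts in 2-m, 182143 to 320514 in 20-m and 226697 to 284468 in 28-m muscle. Of 10 fast-fibre markers, 2 fell and 1 rose at 20 months and 4 fell and 1 rose at 28 months. Fibroblast and matrix markers fell in 4 of 8 genes in both contrasts, from a summed 53596 to 109061 in 2-m muscle to 23187 to 26137 in 20-m and 23200.3 to 31600 in 28-m muscle. Adipocyte markers fell in 5 of 7 at 20 and 2 of 7 at 28 months, from a sum of 7455 to 11323 to between 4761 and 6996. At 20 months 3 of 7 macrophage, 2 of 7 Schwann cell and 1 of 7 pericyte and smooth muscle markers fell, and at 28 months 1 of 5 satellite cell markers fell and 1 of 10 endothelial markers rose. Marrow and bone lists each had 1 marker that fell in both contrasts against 2-m muscle, with the 2-m library described above as their highest. Markers of T cells were near 0, with 6 of 8 in the table, 0 of them above the filter and sums of 5.29 to 34.0. None of these lists had all its defining markers at 0, the part of the cell mixture in the changes of the members was not tested, and in whole muscle fewer cells of a type and less RNA per cell cannot be told apart.

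For the sirtuins, genes of NAD metabolism gave 2 that rose and 1 that fell of 15 tested in each of both contrasts, near the shares over all genes. Nnt, the mitochondrial transhydrogenase, was at 1284 to 1887 normalized counts in 2-m and 2457 to 3599.8 and 2797 to 3708 in older muscle (1.03 and 1.10; limma adjusted p = 0.0014 and 0.0009); C57BL/6J mice are known to carry a deletion in this gene. Nmrk2, a muscle nicotinamide riboside kinase, rose by 0.83 and 1.01. Nnmt, which methylates nicotinamide, fell at 20 months (-1.14), and the NAD-consuming enzyme Cd38 fell at 28 months (-0.79, from 297 to 516 down to 191 to 301 normalized counts).

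Among 14 sirtuin partners and substrates, 4 rose and 0 fell at 20 months, and 4 rose and 1 fell at 28 months. Foxo1, a transcription factor of the muscle atrophy program, was at 1092 to 1225 normalized counts in 2-m, 2237 to 2871 in 20-m and 1842 to 2224 in 28-m muscle (1.13 and 0.77; limma adjusted p = 3.93e-05 and 0.000485). Foxo3 rose by 0.95 and 0.65, and the Sirt3 substrates Idh2 and Acss1 by 0.89 and 0.87 and by 0.53 and 0.34. Glutamate dehydrogenase, Glud1, was the gene that fell at 28 months (-0.28, limma adjusted p = 0.0183; named after its values were seen).

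The opposing enzymes, 10 histone acetyltransferases, had 2 that rose at 20 months, Kat6b (0.38, limma adjusted p = 0.0282) and Kat7 (0.31, limma adjusted p = 0.0495), and 0 at 28 months, where Kat2b had the value 0.21 and Ep300 -0.00. Outside the denervation genes, none of the lists of partners had a gene that passed between 20 and 28 months.

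The genes whose log2 levels ran closest to each called member across the 9 libraries are given as a description, with Pearson's r over n = 9 libraries that share ages and scaling. Hdac2 was nearest to the autophagy gene Atg9a (r = 0.988), Dbt (0.980) and Asb12 (0.978). For Hdac4 these were Sync, which encodes the intermediate filament partner syncoilin (0.969), Sesn3 (0.961) and the small heat shock gene Hspb2 (0.956). Hdac9 ran closest to the desmosomal gene Pkp2 (0.990), Gab2 (0.989) and the chaperone cofactor Bag3 (0.981). Sirt1 was nearest to D430041D05Rik (0.974), Zmym4 (0.973) and Gpr155 (0.964). Pkp2 was at 55.7 to 75.8 normalized counts in 2-m and 198 to 299 and 236 to 277 in older muscle.

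Methylated DNA was then read at the members in muscle and in T cells, as the mean normalized MBD-seq count per 500-bp bin within 1 kb of the start. The table held 1 column of pooled DNA per tissue and age, with 135254786 to 141889499 reads in muscle and 188758989 to 200456498 in T cells, so no test was possible and differences are called here only by size, beyond 1.5-fold with 1 count added. Read intervals are exact Poisson intervals at 95% and cover counting error only. The totals above exceed the average reads per age group that the paper reports, so a read may be counted more than once. The intervals may then be too narrow even for counting error. In muscle at 28 against 2 months, 3 members were higher past that size and 2 lower, against 36.3% and 11.3% of 13136 genes; in T cells these were 3 and 2 against 28.3% and 11.1%. With every library rescaled to the same sum, the counts became 5 and 1 in muscle (55.7% and 2.98% of genes) and 1 and 3 in T cells (15.9% and 17.2%). At 20 against 2 months, 0 members were higher and 2 lower in muscle (9.94% and 14% of genes), and 5 were higher and 1 lower in T cells (25.8% and 7.82%). Rescaled, these were 1 and 1 in muscle (14.7% and 12%) and 4 and 2 in T cells (14.9% and 13.7%).

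Hdac7 and Sirt6 carried the strongest muscle signal of the members at their starts. At Hdac7 it was 59.5 counts per bin (read interval 53.2 to 66.3) at 2 months, 35.0 (30.4 to 40.1) at 20 months and 24.3 (21.0 to 28.1) at 28 months. In T cells the same window went the other way, from 21.1 (17.3 to 25.6) through 45.5 (39.2 to 52.5) to 53.9 (46.8 to 61.9). The upstream window of 250 bases printed above holds 6 CpGs. Each CpG count is of such a window, while the signal is of bins within 1 kb of the start. At the internal start with 25 CpGs the signal was 5.46, 3.20 and 4.59 in muscle, below the medians over all genes of 7.10, 6.90 and 9.18, and 1.83, 9.73 and 11.9 in T cells, where those medians were 8.73, 10.7 and 11.1. Another start, with 5 CpGs in its window, was at 26.6, 18.2 and 15.6 in muscle and 47.3, 74.7 and 90.4 in T cells, and the last, with 21 CpGs, at 3.09, 1.01 and 3.95 and at 3.05, 10.2 and 8.72. The RNA of Hdac7 in muscle, given above, did not pass in any contrast.

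Sirt6 was at 43.5, 27.1 and 24.0 counts per bin in muscle and at 63.1, 97.3 and 78.2 in T cells at 2, 20 and 28 months. Its gene body, the bins more than 1 kb from the start, lay at 79.7, 55.9 and 35.3 in muscle, the lowest log2 ratio of the 10 at 28 against 2 months (-1.15). The starts of Hdac4, Hdac5 and Sirt3 had little signal and were the 3 members past 1.5-fold upward in 28-m muscle. Hdac4 went from 1.09 (6 reads) and 0.674 (4 reads) to 3.57 (28 reads), Hdac5 from 2.00 (11 reads) and 1.85 (11 reads) to 4.97 (39 reads), and Sirt3 from 3.09 (17 reads) and 2.86 (17 reads) to 9.05 (71 reads). The Hdac4 start used, at chr1:92180341, lies inside the annotated gene, whose 5′ end at chr1:92195702 was not measured as a start. The lower end of the 28-m read interval lay above the upper end of the 2-m interval at Sirt3 (7.07 and 4.95) and met it at Hdac4 (2.37 and 2.38) and Hdac5 (3.54 and 3.58).

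At the promoters of the called members Hdac9, Hdac2 and Sirt1, the log2 ratio in muscle at 28 against 2 months was -0.25, 0.53 and 0.06, none past 1.5-fold, and 0.16, 0.97 and 0.45 with libraries rescaled to the same sum, where Hdac2 was past it and Hdac9 changed sign. Hdac9 stood at 11.1, 16.3 and 9.18 counts per bin at its upstream start and at 9.46, 2.86 and 7.39 at its second start. The 250 bases before the upstream start held 0 CpGs, but the signal is of bins that reach 1 kb to either side. In 2-m muscle this signal lay in the bins 0.5 and 1 kb upstream (21.8 and 32.75), against 0.910, 0 and 0 from the start onward. Hdac2 was at 7.46, 6.40 and 11.2, and Sirt1, with 39 CpGs in the 250 bases before its start, at 4.09, 2.74 and 4.30. Over gene bodies in muscle, 0 members were past 1.5-fold upward at 28 months and 2 were past it downward, Sirt6 and Hdac7 (-0.64), against 3.29% and 20.1% of 13009 genes. Rescaled to the same sum these were 1 and 1, against 14.2% and 1.98% of genes, with Hdac7 at -0.21 and Sirt6 at -0.72. In T cells all 10 were higher, as were 89.5% of genes, and 1 of them, Hdac7 (0.82), was past 1.5-fold, against 10.5% of genes. Rescaled to the same sum, 7 members and 44.4% of genes were higher in T cells, with 0 members past 1.5-fold.

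These ratios moved with the shape of whole libraries. The mean count per bin in muscle was 24.0, 22.2 and 17.6 at 2, 20 and 28 months while the median was 7.28, 8.42 and 13.4, and in T cells the mean was 38.8, 47.6 and 48.6 while the median was 6.09, 4.87 and 3.97. The median log2 promoter ratio in 28-m against 2-m muscle was 0.22 for the members and 0.29 for all genes, and over gene bodies -0.31 and -0.30. With every library rescaled to the same sum, these became 0.62 and 0.71 at promoters and 0.12 and 0.12 over gene bodies, so that the direction over bodies depended on the scaling. The part of these library-wide shifts in the members' values was not tested.

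**Figure D5:**
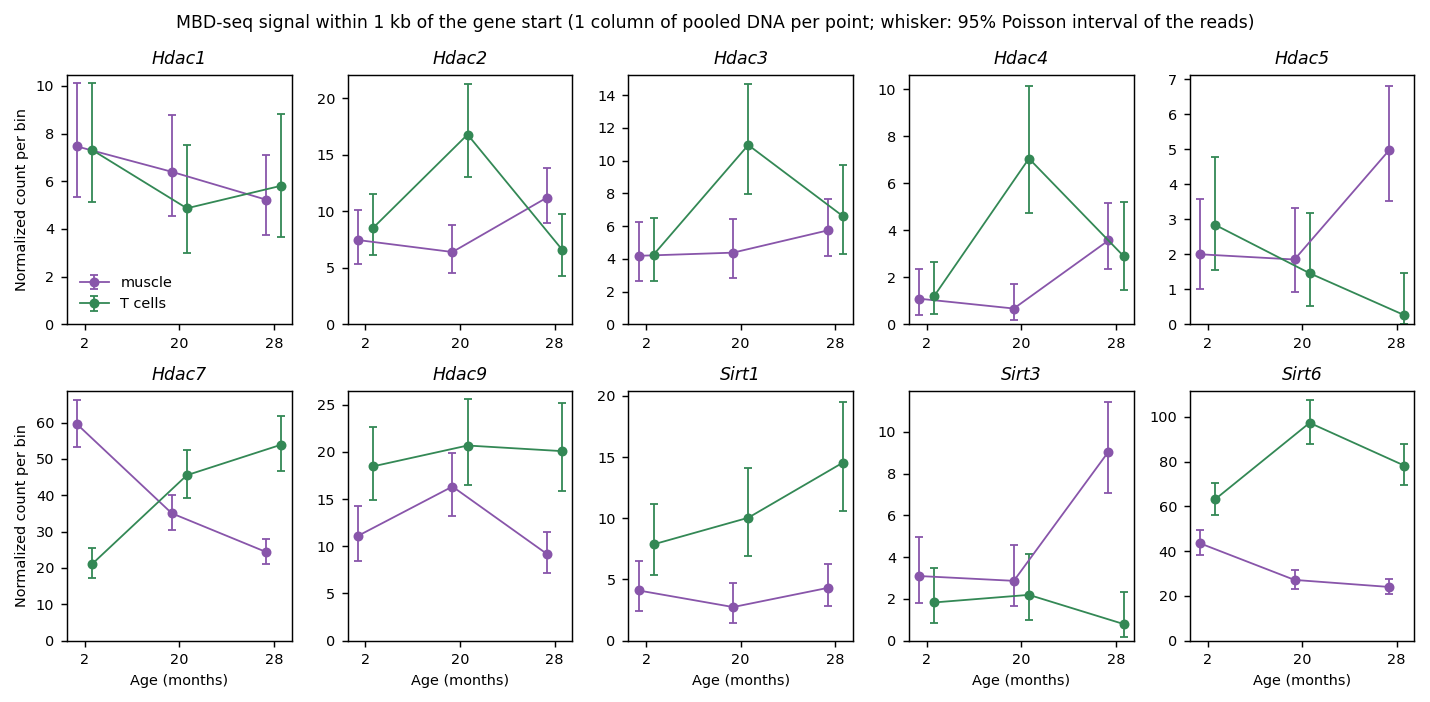
MBD-seq signal within 1 kb of the start of each member, as normalized counts per 500-bp bin at 2, 20 and 28 months, for muscle (purple) and T cells (green), with 1 column of pooled DNA per point and whiskers for the 95% Poisson interval of the reads; the vertical axes differ between panels. At Hdac7 the muscle signal falls from 59.5 to 24.3 while the T-cell signal climbs from 21.1 to 53.9, and Hdac4, Hdac5 and Sirt3 stay below 10 in every library.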

How the data were processed

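RNA-seq covered the muscle of 9 mice, and MBD-seq covered DNA pooled by age from muscle and spleen T cells. The deposited signal values were made by the authors, who trimmed reads with Trim Galore, aligned them to mm10 (Bowtie2 for MBD-seq; for RNA-seq the submitters' notes name TopHat and the published methods Hisat2), counted them per refSeq gene with HTSeq or per 500-bp bin with bedtools, and divided each library by 1 DESeq2 size factor. Whole reads were recovered from 100% of values (tolerance 0.01 of a read) and served the count-based alternatives. The 5 HTSeq summary rows, 37.9 to 47.7% of the normalized values, were left out. The muscle MBD-seq columns do not name which of 2 capture rounds they hold.

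The deposited signal of genes with a mean of at least 10 was tested as log2(value + 1) with limma 3.58.1 (trend; R 4.3.3) over all 9 libraries, with Benjamini-Hochberg adjustment over 13178 genes and a threshold of 0.05, so fold changes of low genes are understated. Single members also had a 2-sided exact permutation test. Alternatives used edgeR 4.0.16, DESeq2 1.42.0, other pseudocounts (0.1 and 5), filters (none and 50) and scalings, a replicate block, a term for the libraries numbered 3, and leaving out each library. In simulated counts for 28 against 2 months, 98% of 200 changed genes among 13178 were recovered and 13 unchanged genes were called. The planted changes were 2-fold or more in either direction, and the simulated libraries numbered 3 had no shift of their own. Recovery of smaller changes, such as those of the members, was not simulated. Replicates are separate mice, and 3 per age limit the precision.

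Gene positions, transcript lengths and promoter sequences came from RefSeq GRCm38.p6, which matched 23231 of 23420 symbols; 9793 of the 13136 annotated genes tested had a listed start, and for the rest, Hdac1 and Hdac3 included, the 5′ end of the gene was used. The members, gene lists and rules were chosen with earlier results of these data known. The genes named are the 10 members, the 8 other deacetylases, up to 4 genes of each list with the smallest adjusted p, and the 3 genes nearest in pattern to each called member; Rbbp4, Camk2a, Myog, Dach2, Chrne and Glud1 were named outside this rule, after their values were seen. A result for 1 gene is not reported here.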

Additional observations from a re-analysis of the deposited data

Results flagged for a closer look

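MBD-seq log2 ratios of 5 member windows went opposite ways in muscle and T cells with both past the fold of 1.5; each rests on 1 column of pooled DNA per tissue and age, and no test of muscle against T cells was possible. Over all genes such opposite ratios occurred at 4.80% of promoters at 20 against 2 months (2 members) and 9.90% at 28 against 2 months (3 members), and at 4.96% of gene bodies at 28 against 2 months (1 member). The start of Hdac7 had a log2 ratio of -0.75 in muscle and 1.07 in T cells at 20 against 2 months, and of -1.26 in muscle and 1.31 in T cells at 28 against 2 months. Its gene body had -0.64 in muscle and 0.82 in T cells at 28 against 2 months. The start of Sirt6 had -0.66 in muscle and 0.62 in T cells at 20 against 2 months. In the other direction, the start of Hdac5 had 0.99 in muscle and -1.60 in T cells at 28 against 2 months, the T-cell value resting on 14 reads at 2 months and 1 read at 28 months. The start of Sirt3 had 1.30 in muscle and -0.66 in T cells at 28 against 2 months, with 9 and 3 reads in T cells. With every library rescaled to the same sum, the body of Hdac7 (-0.21 in muscle and 0.50 in T cells) and the start of Sirt6 (-0.56 and 0.33) were no longer past 1.5-fold, while the starts of Hdac7 (-0.64 and 0.78 at 20 months, -0.83 and 0.99 at 28 months), Hdac5 (1.46 and -1.54) and Sirt3 (1.77 and -0.73) were.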

How the results depend on the processing

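With 3 libraries per age, differences the size of those in Sirt3 or Hdac5 fell near the threshold, and the MBD-seq values have no replicate check. Over the members and the other deacetylases, 1144 values kept direction and side of the threshold under an alternative, 9 lost a call, 7 gained one and 28 changed sign, all of the last in values that did not pass. Where a call or count changed, the cause was not tested.

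Of the 10 members, 2 were called at 20 against 2 months, 1 with libraries rescaled to the same sum, 4 with a term for the libraries numbered 3, 1 in libraries 1 and 2 alone (chosen after seeing the data) and 1 to 3 when leaving out each library. Over all genes, 2181 calls became 586 rescaled, 1099 in libraries 1 and 2, and 1081 (without 20-m library 1) to 2231 when leaving out each library, with 1264 without 20-m library 2 and 1402 without 2-m library 1. At 28 against 2 months, 1814 became 554 rescaled, 712 in libraries 1 and 2, and 963 (without 28-m library 1) to 1846, with 1077 without 28-m library 3 and 1107 without 2-m library 1. At 28 against 20 months, 50 became 24 rescaled, 228 with DESeq2, 103 with the term for libraries numbered 3, 76 in a fit of those ages only, 11 in libraries 1 and 2, and 14 to 88 when leaving out each library: 14, 18, 25, 28 and 23 without 20-m library 1 or 3 or 28-m library 1, 2 or 3, and 88 without 2-m library 2.

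Pairing by library number was not shown for all numbers: deviations of same-numbered libraries from their group means correlated at -0.00888 to 0.0689 for number 1, -0.0401 to 0.0998 for number 2 and 0.109 to 0.161 for number 3, and nothing in the labels ties equal numbers. With a replicate block, 5 members were called at 20 against 2 months (Hdac4, Hdac5 and Sirt3 besides Hdac9 and Sirt1), 3000 genes at 20 and 2529 at 28 against 2 months, and 138 at 28 against 20 months.

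Values of opposite sign at 28 against 2 months were those of Hdac7 (0.0339 rescaled, 0.000782 with edgeR and TMM, 0.000478 with edgeR, 0.00459 with DESeq2, 0.0205 in libraries 1 and 2) and Sirt2 (0.00743 rescaled, 0.0177 in libraries 1 and 2). At 20 against 2 months they were those of Hdac3 (-0.0244 with quantile normalization) and Hdac11 (-0.10 in libraries 1 and 2), and at 28 against 20 months that of Hdac10 (0.0610 in libraries 1 and 2). Leaving out each library gave ranges across 0 at 28 against 2 months for Hdac7 (-0.12 to 0.11), Sirt2 (-0.0819 to 0.0108), Sirt6 (-0.13 to 0.22), Hdac6 (-0.0113 to 0.33), Sirt4 (-0.0278 to 0.22) and Sirt5 (-0.20 to 0.12). It did so at 20 against 2 months for Hdac11 (-0.0786 to 0.13) and Sirt6 (-0.38 to 0.00862), and at 28 against 20 months for Hdac1 (-0.19 to 0.0105), Hdac6 (-0.20 to 0.0541), Hdac10 (-0.19 to 0.0319) and Sirt7 (-0.00910 to 0.23).

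The members' median MBD-seq log2 ratio at 28 against 2 months, 0.22 at muscle promoters, was 0.76 within 0.5 kb of the start, 0.00457 within 2 kb, 0.62 rescaled and 1.15 with the median over bins. In T cells the promoter median of 0.21 became -0.16 within 0.5 kb, -0.10 rescaled and 0 with the median over bins. Over gene bodies, -0.31 in muscle became -0.34 beyond 2 kb, 0.12 rescaled and 0.27 with the median over bins, and 0.38 in T cells became 0.0648 rescaled and 0.109 with the median over bins.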
